A study of Mus musculus with 12 samples.

Results

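miR-7 is a small family of microRNAs (miRNAs) made in the mouse from the genes Mir7-1, Mir7-2 and Mir7b, and its level was followed here from E8.5 endoderm to E11.5 Pdx1-Cre-labelled progenitors. Its members were taken as every entry of the deposited count table named for miR-7a or miR-7b, whether a mature arm or a hairpin precursor. This gave 7 of 1053 entries: the mature arms mmu-miR-7a-5p, mmu-miR-7b-5p, mmu-miR-7a-1-3p and mmu-miR-7a-2-3p, and the precursors mmu-mir-7a-1, mmu-mir-7a-2 and mmu-mir-7b, all written here without the species prefix. Of these, 6 passed the filter on low counts, and miR-7a-1-3p did not. The table held 633 mature arms and 420 precursors in all.

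The 12 small RNA libraries came from sorted mouse embryonic cells, 3 libraries per stage. At E8.5 the sorted cells were endoderm carrying Foxa2-CreER, a tamoxifen-inducible Cre knocked into the Foxa2 locus (Foxa2 mcm), and whole embryos were dissociated to obtain them. From E9.5 through E11.5 they carried the Pdx1-Cre transgene, which is active in the forming pancreas and duodenum, and were collected from the trunk. Every library was sorted for tdTomato, which Cre switched on from the Rosa26 LSL-tdTomato allele, so no library came from unlabelled cells, and the E8.5 embryos alone had been exposed to tamoxifen. Sires in the study's crosses also carried a mir-302 GFP allele, and the mir-302 genotype of the sorted cells is not given in the labels. Cre driver, dissected region and a number in the library names changed together with stage between E8.5 and E9.5, and the number changed again at each later stage, so stage cannot be told apart from them. The labels do not say that the 3 libraries of a stage came from separate litters, so the p-values below measure the spread between these libraries.

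A miRNA hairpin is cut from its primary transcript by Drosha and then by Dicer, and 1 arm of the resulting duplex is loaded into Argonaute. Bases 2 to 8 of that arm, the seed, pair with target transcripts, so arms with the same seed share most of their predicted targets. miR-7 is known as an abundant miRNA of pancreatic islet endocrine cells and of neuroendocrine neurons, where it restrains beta cell proliferation and acts on Pax6, a regulator of endocrine differentiation. The circular RNA Cdr1as binds miR-7 at many sites and is itself cut through a site for miR-671.

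The arm sequences matter because the reads were aligned to the genome before annotation, and the 5p arms differ by a single substitution. RefSeq sequences on build GRCm38.p6 are written 5′ to 3′ with the seed in capitals. All 3 hairpin genes were matched.
miR-7a-5p: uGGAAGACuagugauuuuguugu
miR-7b-5p: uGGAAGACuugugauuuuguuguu
miR-7a-1-3p: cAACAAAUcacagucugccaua
miR-7a-2-3p: cAACAAGUcccagucugccaca
miR-7b-3p: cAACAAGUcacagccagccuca
The 23 bases of miR-7a-5p and the first 23 of the 24 bases of miR-7b-5p were identical at 22 positions, with the substitution A10U counted from the 5′ end of miR-7a-5p. Both carried the seed GGAAGAC, which no other mature miRNA of the RefSeq table held, and this is why their counts could also be added as 1 seed family. The 3p arms were more diverged. miR-7a-1-3p and miR-7a-2-3p differed at 3 of 22 positions, 1 of them in the seed. miR-7b-3p is shown for comparison and was not analysed here.

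The hairpins, with both arms in capitals, show which reads could separate the loci.
Mir7-1: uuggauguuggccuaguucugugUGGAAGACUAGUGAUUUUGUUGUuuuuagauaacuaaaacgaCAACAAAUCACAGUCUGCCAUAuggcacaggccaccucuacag
Mir7-2: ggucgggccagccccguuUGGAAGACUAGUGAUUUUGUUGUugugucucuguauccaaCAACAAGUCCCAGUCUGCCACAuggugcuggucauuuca
Mir7b: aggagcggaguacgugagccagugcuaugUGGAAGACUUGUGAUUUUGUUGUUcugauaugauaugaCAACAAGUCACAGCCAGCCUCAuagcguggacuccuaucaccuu
Mir7-1 (chr13:58392779-58392886, minus strand, 108 bases) lies in an intron of Hnrnpk, on the same strand as that gene. Hnrnpk encodes a ubiquitous RNA-binding protein. Mir7-2 (chr7:78888277-78888373, plus strand, 97 bases) lies between genes, 7481 bp from Aen. Mir7b (chr17:56242988-56243098, plus strand, 111 bases) lies between genes too, 183 bp from the long noncoding RNA AC026385.1 and 13712 bp from Fem1a. Gene positions are those of GENCODE M21 on the same build. Mir7-1 and Mir7-2 shared an unbroken run of 24 bases, which is the whole miR-7a-5p arm and 1 base after it, whereas either shared at most 14 bases in a row with Mir7b. A read that is exactly miR-7a-5p therefore has 2 origins and cannot be assigned to Mir7-1 or Mir7-2.

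The library totals ranged from 53996 to 1103383 miRNA counts. The E9.5 libraries were the smallest, with 53996 to 80075 counts, against 133435 to 267978 at E10.5. An entry without counts could have reached 75.9 CPM (counts scaled to a common library total, with TMM factors) in the smallest library, the level that 3 counts give there. In every library the number of entries per count peaked a second time, at 30.2 to 123 counts, and counts near or under this second count level are given below as multiples of it. Reads were not collapsed to molecules, so intervals and floors cover counting error only.

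miR-7a-5p, the principal mature product of Mir7-1 and Mir7-2, was detected in all 12 libraries and was higher at every later stage than in E8.5 endoderm. At E8.5 it measured 7962, 6820 and 6755 CPM in replicates 1 to 3. At E9.5 it measured 31033, 28064 and 16538 CPM. At E10.5 it measured 61530, 56697 and 47880 CPM. These groups did not overlap: each E9.5 library lay above each E8.5 library, and each E10.5 library above each E9.5 library. Of all entries that passed the filter, 6.83% and 8.76% did the same in these 2 comparisons. At E11.5 the values were 30518, 48235 and 46349 CPM, with 2 of the 3 libraries below all of E10.5 and the lowest among the E9.5 values. Stage means were 7179 ± 679, 25212 ± 7657, 55369 ± 6921 and 41701 ± 9730 CPM (SD, n = 3 each). miR-7a-5p took 0.785% ± 0.101 of all counts at E8.5 and 5.36% ± 0.588 at E10.5. Among the mature arms detected in a library it ranked 19th to 27th at E8.5, 4th to 16th at E9.5, 5th to 6th at E10.5 and 5th to 7th at E11.5.

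miR-7b-5p, the product of Mir7b, was scarce in E8.5 endoderm and prominent by E10.5. At E8.5 it had 46, 14 and 31 counts, or 79.6, 36.2 and 44.8 CPM. At E9.5 it had 274, 138 and 36 counts, or 4450, 1474 and 910 CPM. At E10.5 it had 1920, 666 and 1414 counts, or 7308, 5720 and 5509 CPM. The lowest E9.5 library was above the highest E8.5 library, and the E10.5 libraries were above all of E9.5, as for 6.83% and 8.76% of entries. At E11.5 it had 1589, 7688 and 6033 counts, or 3622, 7032 and 7255 CPM, and these values overlapped with those of E10.5. Stage means were 53.5 ± 23.0, 2278 ± 1902, 6179 ± 983 and 5970 ± 2036 CPM (SD, n = 3 each). Its rank among detected mature arms moved from 292nd to 339th at E8.5 to 24th to 30th at E10.5. The E8.5 counts were 0.230 to 0.648 times the second count level of their libraries, and those of E9.5 were 0.584 to 3.33 times it, against 10.9 to 72.5 times at E10.5 and E11.5. The low end of the miR-7b-5p range thus rested on few counts, and the part that amplification had in it was not tested.

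**Figure D1:**
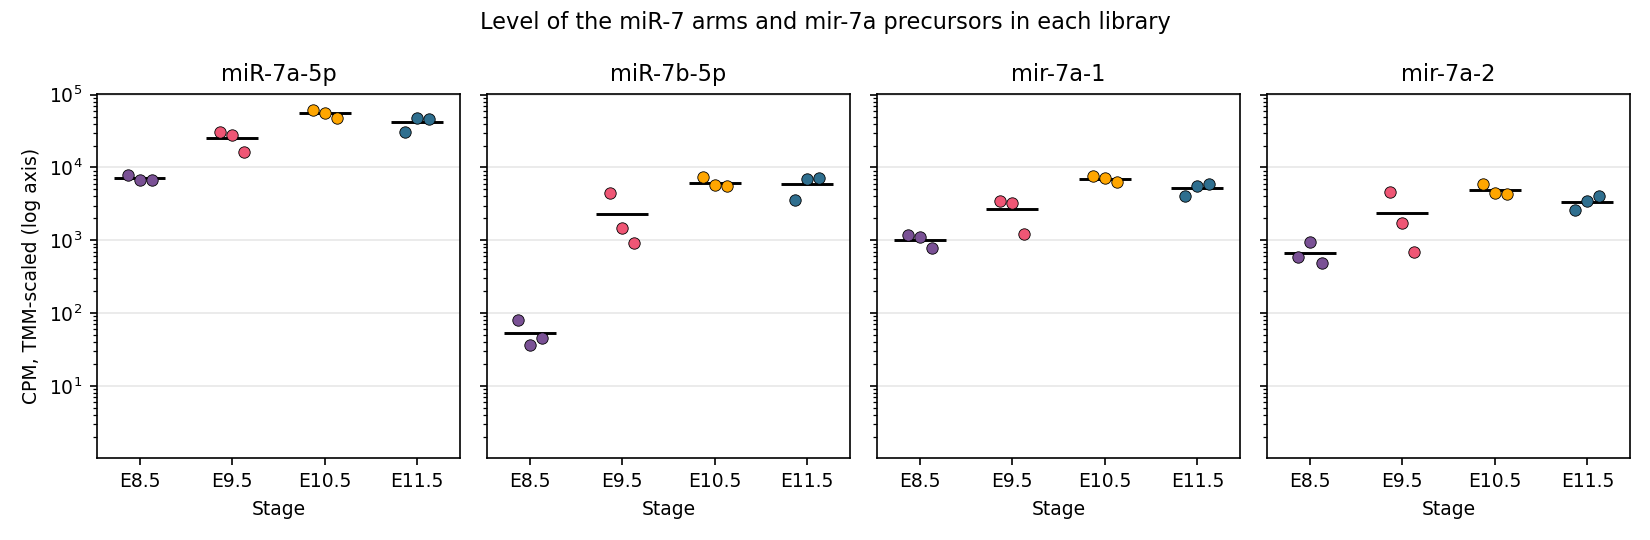
Level of miR-7a-5p, miR-7b-5p, mir-7a-1 and mir-7a-2 in each of the 12 libraries, as CPM with TMM-scaled library sizes on a log axis, by stage; each point is 1 library and each bar the mean of 3. miR-7b-5p covers the widest range, with 36.2 CPM in its lowest E8.5 library and 7308 CPM in its highest E10.5 library. For all 4 entries the 3 E8.5 libraries lie below the E10.5 and E11.5 libraries, as for 13% and 17.3% of all tested entries.

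To ask when miR-7 changed, the stages were compared in 1 fit of all 12 libraries with the edgeR quasi-likelihood test, with Benjamini-Hochberg adjustment over the 571 entries tested and a call at an adjusted p under 0.05. From E8.5 to E9.5, when Pdx1-Cre-labelled cells first appear, miR-7a-5p rose by 1.81 on the log2 scale (SE 0.27, edgeR adjusted p = 6.26e-05). miR-7b-5p rose by 5.40 (SE 0.71, edgeR adjusted p = 1.82e-05). These were the only members called, 2 of the 6 tested, where 4.03% of all entries were called higher. DESeq2 called 5 of the 6, and over all entries it called 52 higher, against 23 with edgeR. Both arms also lay above E8.5 without overlap, as 6.83% of entries did. Over all 571 entries the log2 fold change had a median of -0.84 in this comparison, so the rises were 2.66 and 6.25 relative to it. RLE scaling, which moved that median by 0.64, gave 2.63 and 6.18 relative to its own median. With RLE 88.0% of the called entries were higher, against 71.9% with TMM scaling. Without E9.5 replicate 1 the miR-7b-5p rise was 4.39, and it was 4.40 when counts were scaled by the second count level. Both calls held in each of the 9 alternatives that kept all libraries and without each of the 12 libraries.

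From E9.5 to E10.5, miR-7a-5p rose by a further 1.13 (SE 0.26, edgeR adjusted p = 0.0128), as 1 of the 6 tested members and beside 1.58% of entries called higher. miR-7b-5p had a log2 fold change of 1.44 (SE 0.60), which was not called (edgeR adjusted p = 0.195). E10.5 lay above E9.5 without overlap for both arms, as it did for 8.76% of entries. The miR-7a-5p call did not hold under 4 of the 9 alternatives that kept all libraries, over which its value ran from 0.66 to 1.15. RLE scaling gave 0.66 (edgeR adjusted p = 0.195) and DESeq2 gave 0.66 (DESeq2 adjusted p = 0.416), with the median of all entries moved by -0.46 under RLE. Relative to the median of all entries the change was 0.96 with TMM and 0.95 with RLE. With RLE 4.17% of the called entries were higher, against 36% with TMM. Leaving out E8.5 replicate 2 (0.90) or E9.5 replicate 3 (0.89) ended the call too. So did leaving out replicate 1 (0.86) or replicate 2 (1.09) of E10.5. Without E9.5 replicate 1, the library with the highest miR-7b-5p of its stage, the miR-7b-5p change was 2.45 and was called (edgeR adjusted p = 0.0178).

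From E10.5 to E11.5 no member was called by edgeR, and none had an unadjusted p under 0.05 or was called by DESeq2. Over all entries, edgeR called none higher and 0.35% lower. miR-7a-5p had a log2 fold change of -0.41 (SE 0.26, edgeR adjusted p = 0.589), and miR-7b-5p had -0.05 (SE 0.58, edgeR adjusted p = 0.990). The SE of miR-7b-5p leaves room for a change of either sign, and its sign turned in 5 alternatives.

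Compared with the E8.5 endoderm directly, both later stages were higher for both arms. At E10.5 the log2 fold change was 2.95 (SE 0.28) for miR-7a-5p and 6.84 (SE 0.76) for miR-7b-5p, with edgeR adjusted p-values of 1.31e-07 and 1.32e-06. At E11.5 it was 2.54 (SE 0.28) and 6.79 (SE 0.76), with edgeR adjusted p-values of 7.30e-07 and 8.62e-07. Together with mir-7a-1 and mir-7a-2 this made 4 of 6 tested members called higher in either comparison, where 4.38% of entries were called higher at E10.5 and 5.25% at E11.5. These comparisons share the E8.5 libraries. Between E11.5 and E9.5, 2 tested members had an unadjusted p under 0.05 and none was called by edgeR or DESeq2, beside 1.23% of entries called higher. miR-7a-5p had a log2 fold change of 0.73 (SE 0.26, edgeR adjusted p = 0.126) there and miR-7b-5p of 1.39 (SE 0.60, edgeR adjusted p = 0.214). In order of mean level, both arms were therefore highest at E10.5, followed by E11.5, then by E9.5, with E8.5 lowest. For either arm, E10.5 and E11.5 did not differ beyond their spread. The difference of E11.5 from E9.5 was not called for either arm after adjustment. Its unadjusted edgeR p was 0.0113 for miR-7a-5p and 0.0296 for miR-7b-5p. The difference of E10.5 from E9.5 was not called for miR-7b-5p, and its call for miR-7a-5p depended on the setting.

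Since the arms share a seed, their counts were also added and tested as 1 entry in place of both. In stage order the sum averaged 7232 ± 701, 27489 ± 9190, 61548 ± 7761 and 47671 ± 11747 CPM (SD, n = 3 each). It rose by 1.92 from E8.5 to E9.5 (SE 0.28, edgeR adjusted p = 5.69e-05) and was called in all 10 alternatives that kept every library. From E9.5 to E10.5 it rose by 1.17 (SE 0.27, edgeR adjusted p = 0.0110), and this call was lost in 5 of 10 such alternatives, over which the edgeR or DESeq2 adjusted p ran from 0.00499 to 0.422. Leaving out E9.5 replicate 3 gave 0.90 and no call, as did leaving out replicate 1 (0.89) or replicate 2 (1.12) of E10.5. From E10.5 to E11.5 the sum changed by -0.37 (SE 0.27, edgeR adjusted p = 0.660). Against E8.5 it was higher by 3.09 at E10.5 (SE 0.29, edgeR adjusted p = 8.16e-08) and by 2.72 at E11.5 (SE 0.28, edgeR adjusted p = 3.24e-07). Between E11.5 and E9.5 the difference of 0.80 (SE 0.27) was not called (edgeR adjusted p = 0.0981). It was called without E9.5 replicate 1 (1.14) or without E11.5 replicate 1 (1.11).

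**Figure D2:**
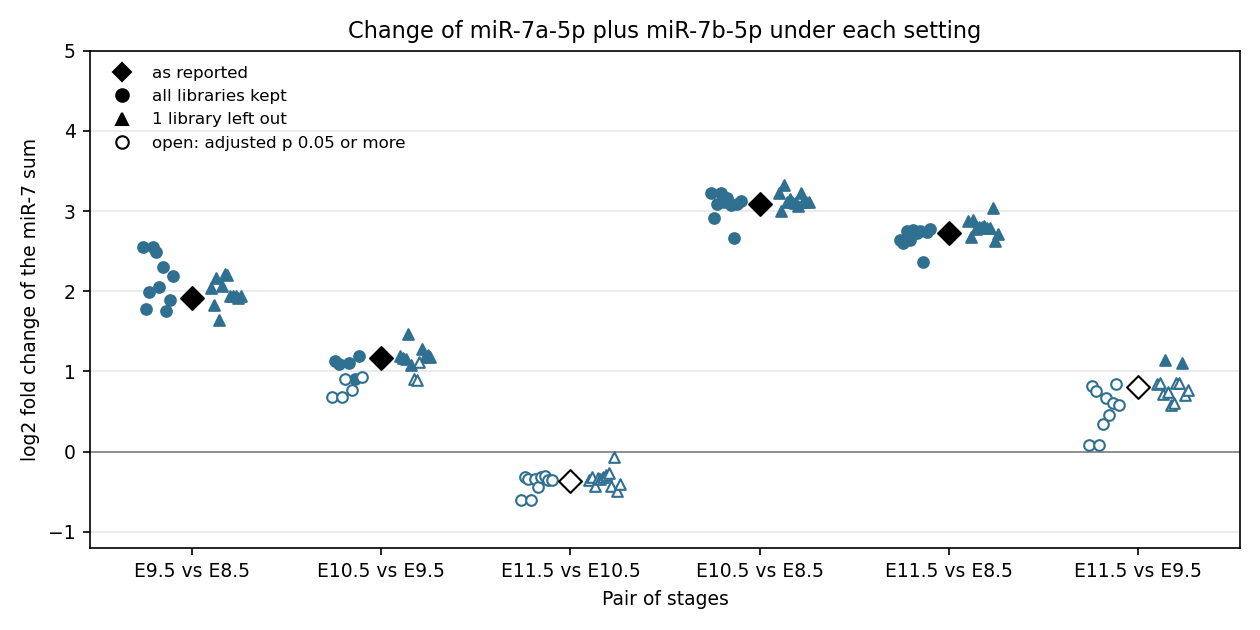
Log2 fold change of the miR-7 sum (miR-7a-5p plus miR-7b-5p) for each pair of stages; the diamond is the value as reported, circles are alternatives that kept all libraries, triangles leave out 1 library each, and open symbols have an adjusted p of 0.05 or more. The values against E8.5 stay filled under every setting, whereas those of E10.5 against E9.5, between 0.69 and 1.47, are partly open.

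The balance between the arms was compared within each library, a measure that needs no scaling between libraries. miR-7b-5p made up 0.989%, 0.528% and 0.659% of the 2 arms at E8.5 (95% exact Clopper-Pearson intervals 0.725 to 1.32%, 0.289 to 0.883% and 0.448 to 0.934%). It made up 12.5%, 4.99% and 5.22% at E9.5 (intervals 11.2 to 14.0%, 4.21 to 5.87% and 3.68 to 7.15%). It made up 10.6%, 9.16% and 10.3% at E10.5 and 10.6%, 12.7% and 13.5% at E11.5. Every Pdx1-Cre library thus had a larger miR-7b-5p share than every E8.5 library, and the spread was widest at E9.5, where replicate 1 stood apart. The share averaged 0.725% ± 0.238 at E8.5 (n = 3) and 9.97% ± 3.08 over the Pdx1-Cre libraries (SD, n = 9). The difference of 9.24 percentage points had p = 0.00455 in a two-sided exact permutation test, the smallest that 220 assignments can give, or 0.0273 adjusted over the 6 share tests. With 1 E8.5 library left out, the adjusted p of the exact test was 0.109, although the difference stayed at 9.14 to 9.38 points. Taken instead as a log2 ratio of the arms, with a pseudocount of 0.5 counts, the difference was 3.87 on the log2 scale (exact permutation test, adjusted p = 0.0273). Among the 3 Pdx1-Cre stages the means were 7.58% ± 4.30, 10.03% ± 0.767 and 12.3% ± 1.51, and did not differ beyond their spread (exact permutation test, p = 0.171, adjusted p = 0.343). Without E9.5 replicate 1 they did (exact permutation test, adjusted p = 0.0214).

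**Figure D3:**
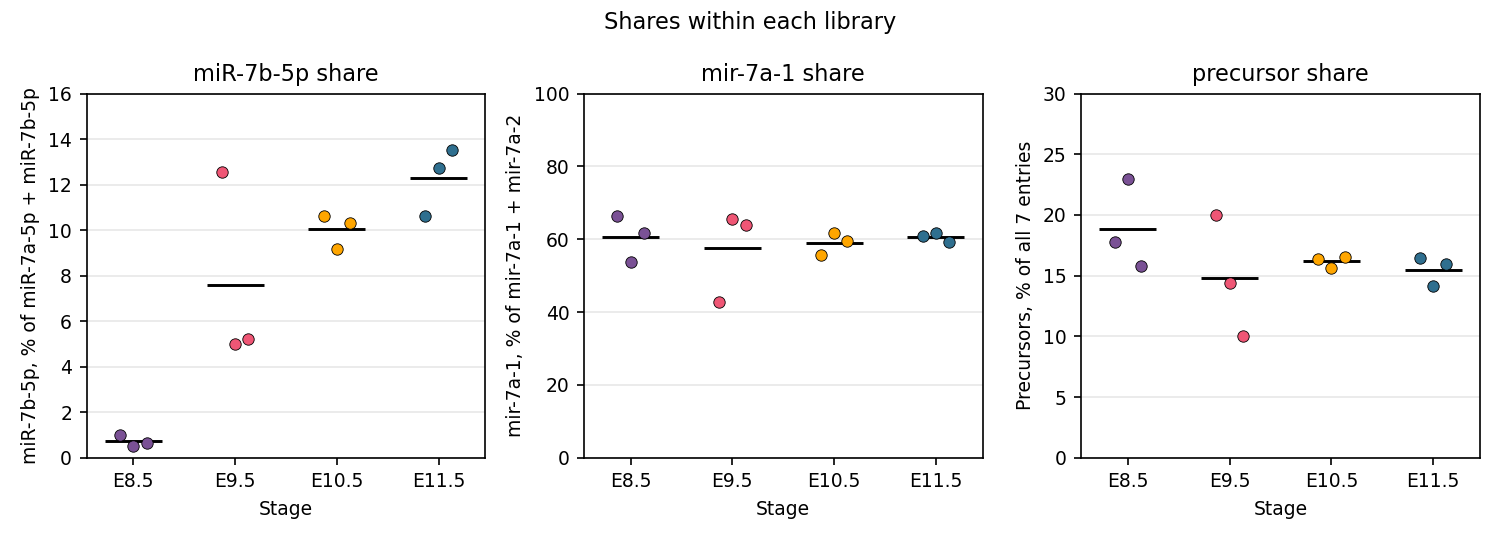
Within-library shares by stage: miR-7b-5p as a percent of both 5p arms, mir-7a-1 as a percent of the mir-7a precursors, and precursor entries as a percent of all 7 entries; each point is 1 library and each bar the mean of 3, with axes from 0. The miR-7b-5p share is under 1% in the 3 E8.5 libraries and 4.99% to 13.5% in the 9 Pdx1-Cre libraries, while the ranges of the other shares overlap between E8.5 and the later stages.

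The precursor entries hold reads that the authors' pipeline gave to the hairpin. How it divided reads between an arm and its hairpin is not given in the sources used here, so these entries are no direct measure of unprocessed precursor. mir-7a-1 had 674, 425 and 545 counts at E8.5 (1166, 1098 and 788 CPM) and 214, 306 and 48 at E9.5 (3475, 3268 and 1214 CPM). It had 1976, 825 and 1611 counts at E10.5 (7521, 7086 and 6277 CPM) and 1762, 6058 and 4904 at E11.5 (4017, 5541 and 5898 CPM). The 48 counts of E9.5 replicate 3 were 0.778 times its second count level. As for the arms, E9.5 lay above E8.5 and E10.5 above E9.5 without overlap, as did 6.83% and 8.76% of entries. All 3 E11.5 libraries lay below all of E10.5, as 3.68% of entries did. The log2 fold change of mir-7a-1 from E8.5 to E9.5 was 1.38 (SE 0.51, edgeR adjusted p = 0.129) and that from E9.5 to E10.5 was 1.39 (SE 0.51, edgeR adjusted p = 0.135), so neither step was called. E11.5 also lay above E9.5 without overlap, as did 16.6% of entries, with a change of 0.96 (SE 0.51) that was not called (edgeR adjusted p = 0.326). The first step was called under 4 of 8 alternatives that kept all libraries. Against E8.5 mir-7a-1 was higher by 2.77 at E10.5 (SE 0.54, edgeR adjusted p = 0.00118) and by 2.34 at E11.5 (SE 0.53, edgeR adjusted p = 0.00333), and both calls held without any 1 library.

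mir-7a-2, the hairpin of the intergenic locus, had 342, 367 and 337 counts at E8.5 (591, 948 and 487 CPM) and 285, 160 and 27 at E9.5 (4628, 1709 and 683 CPM). It had 1576, 514 and 1093 counts at E10.5 (5999, 4415 and 4259 CPM) and 1128, 3768 and 3390 at E11.5 (2571, 3447 and 4077 CPM). Here E8.5 and E9.5 overlapped, through E9.5 replicate 3 with 27 counts, 0.438 times its second count level. E11.5 lay below E10.5 without overlap, as did 3.68% of entries. Its change from E8.5 to E9.5, 1.79 (SE 0.65), was not called (edgeR adjusted p = 0.122). It was called under 3 of 8 alternatives that kept all libraries, namely RLE scaling (2.36), DESeq2 (2.36) and leaving out the entries mir-6236 and mir-6240 (2.11), and without E9.5 replicate 3 (2.34) or E9.5 replicate 2 (2.21). Against E8.5 mir-7a-2 was higher by 2.86 at E10.5 (SE 0.68, edgeR adjusted p = 0.00784) and by 2.32 at E11.5 (SE 0.66, edgeR adjusted p = 0.0228). The first call was lost without E8.5 replicate 3 (2.66), and the second without E8.5 replicate 1 (2.30), E8.5 replicate 3 (2.14), E11.5 replicate 2 (2.31) or E11.5 replicate 3 (2.26).

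mir-7a-1 made up 60.6% ± 6.42 of the mir-7a precursor counts at E8.5 (SD, n = 3) and 59.0% ± 6.69 over the Pdx1-Cre libraries (n = 9). The difference of -1.58 percentage points had p = 0.732 in the exact permutation test (adjusted p = 0.986) and turned sign in 3 alternatives. The lowest share, 42.9%, was that of E9.5 replicate 1, and the other 11 libraries lay between 53.7% and 66.3%. The bases shared by both hairpins limit what this ratio says of the loci, since reads confined to the common arm cannot be split. The mir-7a precursor counts together were 11.47% to 30% of the miR-7a-5p counts of the same library. Precursor entries made up 18.8% ± 3.71 of all member counts at E8.5 and 15.5% ± 2.66 over the Pdx1-Cre libraries, a difference of -3.34 points (exact permutation test, p = 0.127, adjusted p = 0.343). Among the Pdx1-Cre stages neither share was called to differ (exact permutation tests, adjusted p = 0.986 for both).

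The mir-7b hairpin entry was near its floor at E8.5 and in replicates 2 and 3 of E9.5. E9.5 replicate 1 had the highest level of all libraries, 861 CPM, against 39.0 to 163 CPM at E10.5. Its counts were 1, 0 and 1 in the E8.5 libraries and 53, 0 and 2 in the E9.5 libraries. They were 17, 19 and 10 in the E10.5 libraries and 59, 120 and 147 in the E11.5 libraries. E10.5 and E11.5 thus lay above E8.5 without overlap, as did 13% and 17.3% of entries, while E9.5 ranged over all other stages through its replicate 1. No pair of stages was called for mir-7b (edgeR adjusted p from 0.0525 to 0.947). DESeq2 called it higher at each later stage than at E8.5. It came to 0 to 5.56% of the miR-7b-5p counts of its library in all libraries but E9.5 replicate 1, where it came to 19.3%. None of its counts exceeded 1.95 times the second count level.

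The opposite arms of the mir-7a hairpins were rare. miR-7a-2-3p had 28, 0 and 2 counts in the E8.5 libraries and 17, 0 and 1 in those of E9.5. It had 112, 53 and 19 counts in the E10.5 libraries and 33, 25 and 1 in those of E11.5. It was highest at E10.5, where every library lay above those of E8.5, as for 13% of entries. It was called between no pair of stages by edgeR (adjusted p from 0.227 to 0.888). Its counts came to at most 1.09 times the second count level. miR-7a-1-3p had 34 counts in E8.5 replicate 1, 1 in E9.5 replicate 1 and 0 in the other 10 libraries. Over all libraries miR-7a-5p had 156827 counts, against 291 of miR-7a-2-3p and 35 of miR-7a-1-3p, so the arm with the seed GGAAGAC made up nearly all reads of these duplexes.

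To place miR-7 among the miRNAs of the pancreatic programme, 15 miRNAs known from islets or pancreas were counted beside it. Of these, 13 were in the table and 12 were tested. From E8.5 to E9.5 the edgeR test called 1 of 12 higher and none lower, beside 4.03% of all entries called higher. The median log2 fold change of the list was 0.35 there, against -0.84 for all entries. From E9.5 to E10.5 the test called 3 of 12 higher and none lower, beside 1.58% of all entries called higher, with a median of 0.72 against 0.17. From E10.5 to E11.5 it called none, while 4 were called higher at E10.5 and 4 at E11.5 than at E8.5, and 3 at E11.5 than at E9.5. The shares of all entries called higher in those last comparisons were 4.38%, 5.25% and 1.23%, in that order. The call in the first step was miR-24-3p, reported to act on beta cell transcription factors, which measured 1813 to 2782 CPM at E8.5 and 8853 to 10039 CPM at E9.5, a log2 fold change of 1.98 (SE 0.37, edgeR adjusted p = 8.60e-04). The calls in the second step were miR-375-3p, the most abundant islet miRNA, and miR-183-5p and miR-182-5p, which are made from 1 cluster. Their log2 fold changes were 1.57, 1.11 and 0.82 (edgeR adjusted p = 7.80e-04, 0.00852 and 0.0221). The step in which these 3 were called depended on the scaling. With RLE only miR-375-3p of them was called in the second step (1.10, edgeR adjusted p = 0.0236), while miR-375-3p (0.96, edgeR adjusted p = 0.0290) and miR-182-5p (0.99, edgeR adjusted p = 0.0111) were called in the first, where TMM gave 0.34 and 0.36 and no call. DESeq2 called none of the 3 in either step. miR-24-3p was called in the first step with RLE (2.63) and DESeq2 (2.63) too. miR-96-5p, made from the same cluster as miR-182-5p and miR-183-5p, had a log2 fold change of -1.30 (SE 1.10) in the second step. That change was not called (edgeR adjusted p = 0.505). The uncalled members of the list went in both directions in either step. Whether these changes differed from those of miR-7 was not tested. miR-671-5p, which directs the cutting of Cdr1as, had counts in 6 libraries, at 0 to 179 CPM, and was called between no pair of stages by edgeR.

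The mature arms nearest in profile to the miR-7 arms were found over the 12 libraries. The measure was the root mean square (RMS) difference of their standardised log2 CPM. Standardising removed the size of a change, so 0 is an identical shape. miR-7a-5p and miR-7b-5p were 0.19 apart, while the median of 374 mature arms lay 1.43 from miR-7a-5p. Nearest to miR-7a-5p were miR-24-3p (0.37), miR-182-5p (0.37), miR-122-5p (0.39), miR-200b-3p (0.44) and miR-375-3p (0.44). Nearest to miR-7b-5p were miR-24-3p (0.29), miR-122-5p (0.30), miR-205-5p (0.38), miR-200b-3p (0.43) and miR-382-5p (0.45). The lists thus share miR-24-3p, miR-122-5p, the principal miRNA of hepatocytes, and the epithelial miR-200b-3p. All points share the libraries and their depth, and the ranking is a description of them. With RLE scaling all 5 of the miR-7a-5p list and 4 of the miR-7b-5p list were the same entries.

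**Figure D4:**
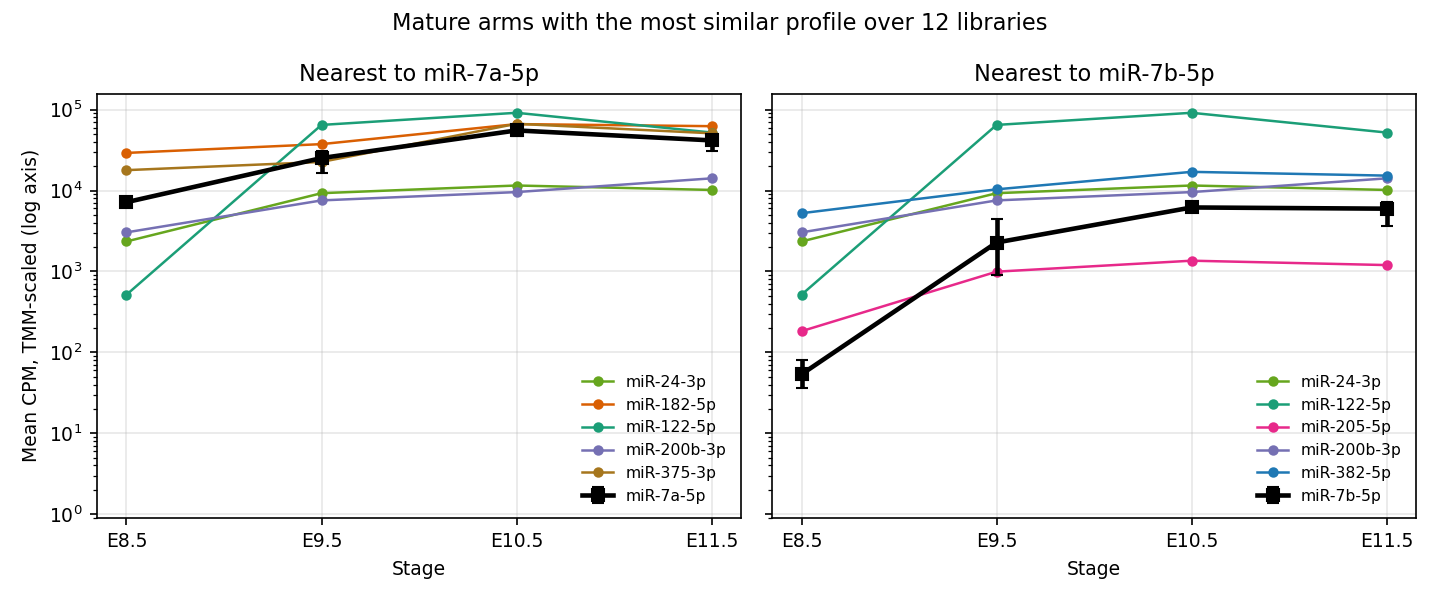
Mean CPM at each stage, on a log axis, of the 5 mature arms nearest in profile to miR-7a-5p (left) and to miR-7b-5p (right), with the miR-7 arm itself in black and bars from its lowest to its highest library. All lines are at their lowest at E8.5. The steepest from E8.5 to E9.5 are miR-122-5p, with means of 516 and 64756 CPM, and miR-7b-5p, with means of 53.5 and 2278 CPM.

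Markers of other cell types were followed beside miR-7, since in sorted bulk cells fewer cells of a type cannot be told apart from less RNA per cell. The hepatic marker miR-122-5p measured 463 to 593 CPM at E8.5 and 38765 to 91248 CPM at E9.5. This step was without overlap, as for both miR-7 5p arms and 6.83% of all entries tested. Its log2 fold change was 6.97, against 1.81 for miR-7a-5p and 5.40 for miR-7b-5p. The endothelial markers miR-126a-3p and miR-126a-5p (2 of 2 in the table) summed to 1821 to 2281 CPM at E8.5 and to 32.5 to 429 CPM in all later libraries. The edgeR test called neither between any pair of stages. Most of that sum was miR-126a-3p, with stage means of 1971, 252, 335 and 198 CPM. miR-126a-5p had stage means of 92.4, 3.56, 2.57 and 84.5 CPM and counts in 7 libraries. The 4 mesenchymal markers summed to 5906 to 12604 CPM at E8.5 and to 1164 to 2046 CPM at E9.5, and the E10.5 libraries held 3152 to 8801 CPM, those of E11.5 3240 to 6581 CPM. Most of that sum was miR-143-3p, with stage means of 8684, 1446, 5877 and 4453 CPM, and the members did not move together. miR-199a-5p had stage means of 0, 26.4, 197 and 207 CPM and miR-214-3p of 3.64, 32.4, 204 and 546 CPM, in the direction of the miR-7 arms from E8.5 to E10.5. The edgeR test called 1 of the 4 lower at E9.5 and 2 higher at E11.5 than at E8.5. Over all 571 entries it called 9 lower in the former comparison and 5.25% higher in the latter. The median log2 fold change of the 4 markers in the first step was 0.22 against -0.84 for all entries. Of the leukocyte markers 2 of 4 were in the table, and neither passed the filter on low counts. They summed to 10.7 to 2655 CPM at E9.5 and to at most 59.3 CPM elsewhere. The E9.5 sum was nearly all miR-223-3p, whose mean was 1443 CPM in that stage and which had counts in 5 libraries. The other marker, miR-142a-5p, went the opposite way, with stage means of 19.3, 3.56, 0 and 0 CPM and counts in 2 libraries. The neural markers (4 of 4 in the table) summed to 97.4 to 1966 CPM over all libraries. Most of that was miR-128-3p, and the neuronal miR-124-3p and miR-9-3p had counts in 6 and 3 libraries. The erythroid markers (2 of 4) summed to 32.5 to 834 CPM, with miR-451a in 5 libraries. The 5 epithelial markers of the miR-200 family summed to 9026 to 11028 CPM at E8.5 and 16457 to 38948 CPM later. Against E8.5 the edgeR test called none of the 5 at E9.5, 1 higher at E10.5 and 3 higher at E11.5. Over all entries it called 4.03%, 4.38% and 5.25% higher in these comparisons. From E8.5 to E9.5 the mean of miR-141-3p went from 67.7 to 24.5 CPM, while the means of the other members were higher at E9.5. The part of these cell types in the miR-7 changes was not tested. Foxa2 and Pdx1 themselves are not measured by small RNA sequencing, so the sorted identity could not be checked by them.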

How the data were processed

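Small RNA of 12 libraries (E8.5 Foxa2-CreER cells and E9.5, E10.5 and E11.5 Pdx1-Cre cells, n = 3 each) was sequenced single-end by the authors. They trimmed the adapter and 4 random bases and ran the COMPSRA pipeline with STAR on mm10, and the submitters' processing notes name mm10 and GRCm39. Per the file headers reads of 17 to 35 bases (to 36 in E8.5 replicate 1 and E9.5 replicate 3) were kept. The deposited values are raw read counts per mature or precursor miRNA entry, merged and not normalised. All 12 columns were used.

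Counts were tested in R 4.3.3 with edgeR 4.0.16 and its quasi-likelihood test (TMM factors 0.732 to 1.17, filterByExpr with a minimum count of 10 and total of 15, stage as the only factor, Benjamini-Hochberg over 571 entries, or 570 with the miR-7 sum). The SE is the log2 fold change divided by the square root of F, with a prior count of 0.125 in fitted changes. The common biological coefficient of variation was 1.19. Shares of counts were compared with exact permutation tests written to run through all assignments. The form used between E8.5 and Pdx1-Cre libraries was checked against scipy 1.17.1 on made-up values, and scipy gave the Clopper-Pearson intervals. Likeness used log2 CPM with a prior count of 2. Scripts were tested on simulated data. DESeq2 1.42.0, other scalings and filters, a replicate block and leaving out each library were alternatives.

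The members, the islet and cell type lists and the tests were chosen with earlier results of these data known. All members were described. Of the islet list and miR-671-5p, the called entries with the largest changes in the first 2 steps were named, and the 5 arms nearest in profile to each 5p arm. The second count level is the highest peak over 10 counts of a density of log10 counts (bandwidth 0.12). Replicates of a stage differed by more than counting noise (chi-square per degree of freedom 42.5 to 137), so each library counted as 1 replicate.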

Additional observations from a re-analysis of the deposited data

How the results depend on the processing

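The calls of miR-7a-5p, miR-7b-5p and their sum at each Pdx1-Cre stage against E8.5 held in every alternative run, with the sum at 1.76 to 2.55, 2.67 to 3.23 and 2.36 to 2.78 on the log2 scale when all libraries were kept, and 1.64 to 2.21, 3.00 to 3.32 and 2.63 to 3.04 when each library was left out. The rise of the sum from E9.5 to E10.5 was not called with RLE scaling (0.69), DESeq2 (0.69), only the libraries of both stages (0.90), without mir-6236 and mir-6240 (0.77) or, an alternative chosen after seeing the data, with the let-7, miR-302 and miR-290 families also summed (0.94). Leaving out each library gave 0.89 to 1.47 there, -0.49 to -0.07 for E11.5 against E10.5, and 0.59 to 1.14 for E11.5 against E9.5. Why the call changed was not tested.

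Same-numbered libraries did not deviate together (correlations -0.15 to 0.11 over 18 pairs, 1 of them over 0.1, and 4 of 12 libraries correlating best with their own number), so numbers do not pair libraries. With the replicate block the sum changed by 1.89, 1.19 and -0.35 in the successive steps and kept its calls.

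The number of entries called (32, 25, 2, 49, 66 and 26 in the order E9.5 against E8.5, E10.5 against E9.5, E11.5 against E10.5, E10.5 against E8.5, E11.5 against E8.5, E11.5 against E9.5) moved with the tool and with the libraries kept. DESeq2 called 63, 61, 12, 109, 98 and 61, and of the 6 tested members 5, 0, 0, 5, 5 and 0 against 2, 1, 0, 4, 4 and 0 with edgeR, and only the libraries of the stages compared gave 41, 11, 4, 100, 106 and 10. RLE scaling called 50 in the first comparison, no filter 50 in the second and 5 in the third, mature entries only 1, leaving out mir-6236 and mir-6240 1 and dividing by the second count level 8 in the third. Leaving out each library gave 21 to 44, 7 to 42, 1 to 5, 27 to 65, 38 to 80 and 17 to 38.

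The miR-7b-5p share difference between Pdx1-Cre and E8.5 libraries was 8.80 to 9.87 points when each library was left out, and its adjusted p passed 0.05 only without an E8.5 library, where 2 against 9 libraries gave the smallest p that this exact test allows (0.109 after adjustment). The gap between the lowest and highest Pdx1-Cre stage mean was then 3.41 to 7.19 points, and was called without E9.5 replicate 1. The mir-7a-1 share difference turned to 3.77 points after division by that level, and ran from -5.05 to 1.29 points when each library was left out, turning sign without E8.5 replicate 1 (1.29) and E9.5 replicate 1 (0.43).

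Signs of uncalled changes turned as follows. miR-7b-5p from E10.5 to E11.5 was 0.0025 without mir-6236 and mir-6240, 0.026 after division by the second count level, 0.069 with the replicate block, and -0.22 to 0.31 when each library was left out, with 0.077 and 0.31 without replicate 1 of E10.5 or E11.5. mir-7a-2 at E11.5 against E9.5 was -0.13 with RLE and with DESeq2. When each library was left out, mir-7b ran from -2.66 to 2.08 for E10.5 and from -1.84 to 2.72 for E11.5 against E9.5, and miR-7a-2-3p from -0.83 to 5.76 for E9.5 against E8.5 and from -2.94 to 1.67 for E11.5 against E9.5, in all of which E9.5 replicate 1 turned the sign. miR-7a-2-3p ran from -0.36, without E11.5 replicate 1, to 4.17 for E11.5 against E8.5. The depth of the E9.5 libraries limits what can be said of mir-7b and the 3p arms.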
